A study of Mus musculus with 4 samples.

Results

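Ccl3/Ccl4-high microglia were microglia sorted from mouse brain whose messenger RNA held an unusually large share of the transcripts of Ccl3 and Ccl4, a pair of chemokine genes. A cell counted as a member when its unique molecular identifiers (UMIs, each standing for 1 captured transcript) met each of the following conditions after quality control. P2ry12, Tmem119, Siglech, Fcrls, Olfml3 and Selplg together gave at least 30 per 10000 UMIs, which marks microglia. Ccl3 and Ccl4 together gave at least 20 per 10000. Mki67, Top2a and Birc5 stayed under 3 per 10000, Spp1 and Igf1 under 100, and Ifit1, Ifit2, Ifit3, Rsad2 and Isg15 under 10, which removed cycling cells, cells rich in Spp1 or Igf1 and interferon-responsive cells. The rule found 286 members among 20437 barcodes, namely 110 in female stroke, 20 in female sham, 81 in male stroke and 75 in male sham. They were set against the 11592 other microglia of the same pools that passed every condition except the one on Ccl3 and Ccl4, called other microglia here.

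All mice, stroke and sham alike, carried the Tmem119-2A-CreERT2 and Ai6 alleles, so that a tamoxifen-inducible Cre made under the Tmem119 gene switches on the green protein ZsGreen, mainly in microglia. In the stroke groups the right middle cerebral artery was ligated for good (pMCAO), and in the sham groups the operation was done without ligation. On day 3 the operated hemisphere was dissociated mechanically, the live cells positive for ZsGreen were sorted by flow cytometry, and RNA was read with 10x Genomics 3′ single-cell chemistry. Each of the 4 groups (female stroke, female sham, male stroke, male sham) was 1 library pooled from 4 mice, so that no group had a replicate and single mice could not be told apart. Only sorted cells that lived through dissociation were seen, and 1240 cells with neural or choroid plexus markers were among them, with ZsGreen at 39.9 to 91.8 CPM, against 621 to 1468.5 CPM in other microglia. The pools held 66072270 UMIs in female stroke, 29581392 in female sham, 52733857 in male stroke and 40970923 in male sham.

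CCL3 and CCL4, also called macrophage inflammatory proteins 1 alpha and 1 beta, are small secreted CC chemokines. They act through G protein-coupled receptors, among them CCR1 for CCL3, and draw monocytes, T cells and other leukocytes into inflamed tissue. Microglia switch these genes on quickly when they are activated, under transcription factors of the NF-kappaB, AP-1 and ATF families, and the preparation of single cells from brain is itself known to induce them. CD83 is a surface protein of activated antigen-presenting cells, and Kcnj2 encodes the inward rectifier potassium channel Kir2.1.

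In the mouse genome (GRCm38, GENCODE M21 annotation) Ccl3 lies at chr11:83647844-83649355 on the minus strand and its neighbour Ccl4 at chr11:83662584-83664683 on the plus strand. Cd83 lies at chr13:43784775-43803132 and Kcnj2 at chr11:111066164-111076821, both on the plus strand. The 250 bases upstream of the annotated start, from RefSeq on GRCm38.p6, are shown for the defining gene Ccl3, for Atf3, which had the highest mean correlation with Ccl3 and Ccl4 over the pools, and for Ch25h and Csf1, a pair of genes that rose in stroke and sham and whose windows held a motif of these factor families. They were searched on both strands for the kappaB letters GGGNNNTTCC and GGGNNNTCCC, the AP-1 letters TGANTCA and the cyclic AMP response letters TGACGTCA (N is any base). Capitals mark a match, and a window with no capitals had none.
Ccl3, chr11:83649379-83649628, minus strand: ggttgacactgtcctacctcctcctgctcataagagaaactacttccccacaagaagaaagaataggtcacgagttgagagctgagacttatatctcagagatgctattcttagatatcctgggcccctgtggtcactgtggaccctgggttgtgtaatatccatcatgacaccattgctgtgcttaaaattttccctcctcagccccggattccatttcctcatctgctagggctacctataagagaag
Atf3, chr1:191183334-191183583, minus strand: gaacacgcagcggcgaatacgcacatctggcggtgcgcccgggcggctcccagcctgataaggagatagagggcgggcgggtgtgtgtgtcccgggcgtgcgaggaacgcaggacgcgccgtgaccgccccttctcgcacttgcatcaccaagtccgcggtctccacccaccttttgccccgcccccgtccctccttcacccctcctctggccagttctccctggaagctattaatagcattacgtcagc
Ch25h, chr19:34475149-34475398, minus strand: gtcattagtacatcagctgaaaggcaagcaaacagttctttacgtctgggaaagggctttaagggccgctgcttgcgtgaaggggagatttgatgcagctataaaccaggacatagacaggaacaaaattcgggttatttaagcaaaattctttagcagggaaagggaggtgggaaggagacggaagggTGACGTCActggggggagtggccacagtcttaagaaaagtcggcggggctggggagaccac
Csf1, chr3:107760470-107760719, minus strand: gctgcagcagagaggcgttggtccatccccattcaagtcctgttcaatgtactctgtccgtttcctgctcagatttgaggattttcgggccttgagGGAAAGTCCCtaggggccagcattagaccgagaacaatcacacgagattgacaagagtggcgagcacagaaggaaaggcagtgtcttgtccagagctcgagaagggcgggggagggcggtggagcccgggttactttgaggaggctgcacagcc

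The Ch25h window held TGACGTCA, its first base 61 bases before the start. The Csf1 window held GGAAAGTCCC, the reverse strand of a GGGNNNTTCC match, its first base 154 bases before the start. Over all 32851 mouse promoter windows of this length, 4.65% held GGGNNNTTCC, 4.77% held GGGNNNTCCC, 8.80% held at least one of them (a stretch can match both), 6.75% held TGANTCA and 1.55% held TGACGTCA. Of the 15 genes named below as highest in members, 12 were found in the table with 16 windows, of which 4 held a kappaB match, 2 an AP-1 match and 1 a cyclic AMP response match. These are matches of letters only.

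Ccl3/Ccl4-high cells made up a larger share of the microglia that passed all the other conditions in both stroke pools than in either sham pool. The share was 4.55% (95% exact binomial interval 3.76 to 5.46) of 2416 cells in the female stroke pool and 3.597% (2.87 to 4.45) of 2252 cells in the male stroke pool. It was 0.636% (0.389 to 0.981) of 3143 cells in the female sham pool and 1.84% (1.45 to 2.31) of 4067 cells in the male sham pool. The intervals cover counting error only, and an exact permutation test of 2 pools against 2 cannot reach p under 0.05, so none was run. The male sham barcodes had been called at no fewer than 4198 UMIs, whereas the lowest barcode had 501 in female stroke, 500 in female sham and 500 in male stroke. With that minimum in every pool the shares were 5.003%, 0.7596%, 3.78% and 1.84% in the order female stroke, female sham, male stroke, male sham.

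Cells with as much Ccl3 and Ccl4 also occurred among the microglia that the exclusions removed. Before cycling, Spp1 or Igf1 rich and interferon cells were taken out, 198, 21, 166 and 80 microglia of the female stroke, female sham, male stroke and male sham pools reached 20 per 10000 of Ccl3 and Ccl4. Among the cells taken out, 8.45% of 1042 in female stroke, 1.82% of 55 in female sham, 9.004% of 944 in male stroke and 5.56% of 90 in male sham did so. In all 4 pools this was a larger share than among the cells kept, in female sham on 1 cell.

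The threshold cut members from a range of levels, and cells lay close to it on both sides in every pool but female sham. The summed level of Ccl3 and Ccl4 had a median of 40.6 per 10000 UMIs in female stroke members (lowest 20.01, highest 322), 68.7 in female sham (34.2 to 615), 42.3 in male stroke (20.04 to 419.6) and 48.3 in male sham (20.5 to 485). Close to the threshold, 17, 0, 14 and 8 members in the order female stroke, female sham, male stroke, male sham lay between 20 and 25 per 10000, with medians of 22.2 in female stroke, 23.9 in male stroke and 22.2 in male sham. Just outside it, 25, 5, 25 and 15 other microglia lay between 15 and 20 per 10000, with medians of 17.5, 17.7, 16.9 and 17.3. A level of 100 per 10000 or more was reached by 18 female stroke members (16.4%), 7 female sham members (35%), 13 male stroke members (16.05%) and 20 male sham members (26.7%). Sham members were fewer and a larger part of them stood at the top of the range, as the plot of shares and levels shows.

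**Figure D1:**
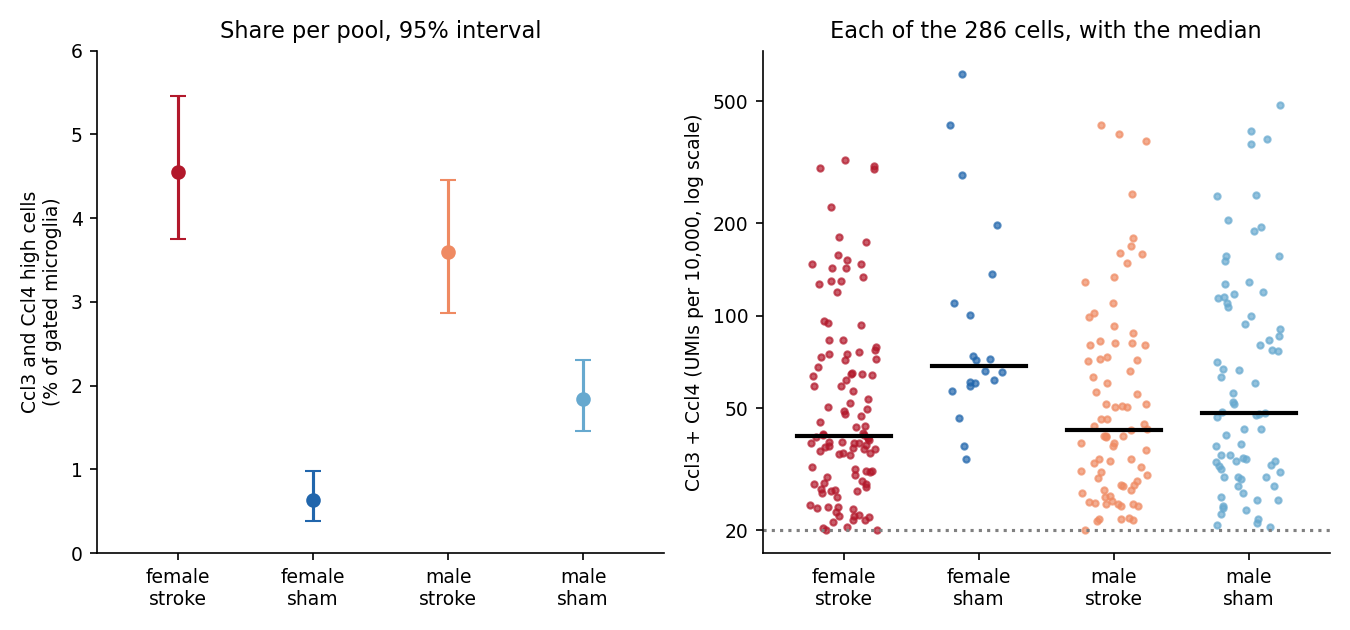
Left, percent of microglia passing all other conditions that were Ccl3/Ccl4-high in each pool, with exact 95% binomial intervals. Right, summed Ccl3 and Ccl4 UMIs per 10000 on a log scale for each of the 286 members, 1 point a cell, with the pool's median as a line. Both stroke pools had higher shares than both sham pools, 4.55% and 3.597% against 0.636% and 1.84%, while the member medians ran between 40.6 and 68.7 per 10000.

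Nearly every member expressed both genes. Both Ccl3 and Ccl4 had at least 1 UMI in 108 of 110 female stroke members, 20 of 20 female sham members, 77 of 81 male stroke members and 71 of 75 male sham members. The members held 2.06, 1.82, 1.55 and 2.26 Ccl4 UMIs per Ccl3 UMI in the order female stroke, female sham, male stroke, male sham. The tenth of members with the highest level held 33.1%, 37.5%, 38.7% and 48.1% of the members' Ccl3 and Ccl4 UMIs in the same order, so the sums below lean on few cells in every pool. Of other microglia, 61.1% in female stroke, 89.6% in female sham, 65.0% in male stroke and 79.4% in male sham had no UMI of either gene.

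The defining genes are given as a description, since they chose the cells. In CPM, that is UMIs scaled to the library total with edgeR's TMM factors, Ccl3 stood at 2019.8 and 2802 in female and male stroke members against 95.99 and 88.8 in other stroke microglia. In sham it stood at 3966 and 2925 CPM in female and male members against 21.4 and 41.1 CPM in other microglia. Ccl4 stood at 4161 and 4339 CPM in stroke members against 78.1 and 71.2 CPM in other stroke microglia, and at 7216 and 6615 CPM in sham members against 9.94 and 27.4 CPM in other sham microglia. Other microglia of stroke thus also carried more Ccl3 and Ccl4 than those of sham. The microglia gate genes ran lower in members, with a median of 65.3 per 10000 against 90.9 in other microglia of female stroke, 59.6 against 122 in female sham, 75.5 against 96.1 in male stroke and 67.9 against 114 in male sham.

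Genes outside the rule were compared between members and other microglia, UMIs being summed over each kind of cell in each pool and the pool kept as a block. The comparison asks which genes went along with Ccl3 and Ccl4 in the same cells, within stroke and within sham. Of 13288 genes tested, 333 were higher (2.51%) and 301 lower (2.27%) in members within stroke at an adjusted p under 0.05 by edgeR's quasi-likelihood test with Benjamini-Hochberg adjustment, 4.77% in all. Within sham 735 were higher (5.53%) and 580 lower (4.36%), 9.9% in all. Higher in both were 250 genes, 75.1% of the stroke list and 34.0% of the sham list. Lower in both were 188 genes, 62.5% of the stroke list and 32.4% of the sham list, and 4 genes were called in opposite directions. The median log2 change over all genes tested was -0.05 within stroke and -0.10 within sham.

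These p-values measure the spread between summed pools as shared by all genes, without weight on a gene's own spread, and not that between mice. The stroke count rests on both pools: it was 44 higher and 7 lower without the female stroke pool and 60 and 50 without the male stroke pool, and 488 or 501 higher and 526 lower without either sham pool. The sham lists were 493 higher and 294 lower without the male sham pool, 425 higher without the female stroke pool and 432 higher without the male stroke pool. The female sham members were 20 cells with 186587 UMIs, against 1251035 UMIs in female stroke, 814152 in male stroke and 555668 in male sham members.

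The markers named for these cells beside Ccl3 and Ccl4 were higher in members of all 4 pools. Cd83 stood at 299.8 and 424 CPM in the Ccl3/Ccl4-high microglia of the female and male stroke pools, against 142 and 156 CPM in the other microglia. Within sham Cd83 stood at 943 and 527 CPM in the Ccl3/Ccl4-high microglia of the female and male sham pools, against 78.1 and 96.9 CPM in the other microglia. Each member sum was above its own other microglia, and the female sham sum was the highest of all. The log2 change of Cd83 was 1.26 ± 0.13 within stroke (adjusted p 2.37e-19) and 2.97 ± 0.14 within sham (adjusted p 3.00e-93), where ± is the standard error implied by the test. Kcnj2 stood at 88.1 and 133 CPM in the Ccl3/Ccl4-high microglia of the female and male stroke pools, against 32.9 and 35.5 CPM in the other microglia. Within sham it stood at 116 and 80.1 CPM in the Ccl3/Ccl4-high microglia of the female and male sham pools, against 29.1 and 17.9 CPM in the other microglia. Its groups did not overlap, with log2 changes of 1.66 ± 0.18 within stroke (adjusted p 5.48e-18) and 2.10 ± 0.25 within sham (adjusted p 2.48e-14). In female sham members 12 of the 22 Kcnj2 UMIs came from 1 cell.

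Free RNA and depth were set beside these shares of cells. After thinning each cell to 3000 UMIs, Cd83 was seen in 48.6%, 90%, 47.3% and 60% of members of female stroke, female sham, male stroke and male sham, against 29.7%, 21.4%, 33.1% and 24.2% of other microglia. Unthinned, the shares were 76.4%, 95%, 77.8% and 74.7% of members and 53.9%, 34.5%, 55.4% and 38.8% of other microglia. In neural cells of the same pools, which should lack the gene, it was seen in at most 1.81% of the cells of any pool after thinning. Kcnj2 was seen in 22.9%, 15%, 25.7% and 21.3% of members against 9.58%, 7.96%, 8.81% and 5.01% of other microglia, and in at most 3.53% of neural cells (unthinned 50%, 45%, 53.1% and 33.3% of members and 20.99%, 16.6%, 21.004% and 9.97% of other microglia). Thinning left out 5, 0, 7 and 0 members, 207, 295, 208 and 0 other microglia and 9, 184, 11 and 0 neural cells in the same order of pools. Members had a median of 9568, 7870, 8299 and 6341 UMIs and other microglia 7339.5, 6192, 7329 and 5419.5, neural cells 19088, 4412.5, 14948 and 18463. Members were thus somewhat deeper in every pool.

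Members carried more RNA of a set of early transcription factors, among them Atf3, a stress-induced repressor of the ATF/CREB family. Atf3 (chr1:191170296-191218039, minus strand) stood at 199 and 255 CPM in the Ccl3/Ccl4-high microglia of the female and male stroke pools, against 42.9 and 35.3 CPM in the other microglia. In the sham pools it stood at 1074 and 667 CPM in the Ccl3/Ccl4-high microglia of the female and male sham pools, against 16.7 and 30.5 CPM in the other microglia. Members were above other microglia in all 4 pools and sham members were above stroke members. The log2 change was 2.52 ± 0.14 within stroke (adjusted p 1.73e-64) and 5.14 ± 0.15 within sham (adjusted p 1.17e-243). At least 1 Atf3 UMI was present in 74 of 110 female stroke, 20 of 20 female sham, 47 of 81 male stroke and 48 of 75 male sham members. After thinning to 3000 UMIs it was seen in 40.95%, 75%, 32.4% and 49.3% of members, against 8.86%, 4.74%, 8.66% and 7.94% of other microglia and at most 2.63% of neural cells (unthinned 67.3%, 100%, 58.02% and 64% of members and 19.1%, 8.93%, 19.4% and 14.4% of other microglia).

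The zinc-finger factors of the EGR family followed. Egr2, which acts downstream of growth factor and MAP kinase signals, stood at 29.6 and 46.2 CPM in the Ccl3/Ccl4-high microglia of the female and male stroke pools, against 3.67 and 2.79 CPM in the other microglia, and within sham at 184 and 64.4 CPM in the Ccl3/Ccl4-high microglia of the female and male sham pools, against 2.42 and 5.72 CPM in the other microglia. Its member and other sums did not overlap, but 19 of the 35 Egr2 UMIs of female sham members came from 1 cell. Egr1 rose with log2 changes of 1.10 ± 0.13 within stroke and 1.82 ± 0.14 within sham. Egr3 had 11.01 and 0 CPM in stroke members against 1.12 and 0.913 CPM in other stroke microglia, and 263 and 74.9 CPM in sham members against 1.46 and 5.76 CPM in other sham microglia. It rose within stroke (log2 2.51 ± 0.72) through the female pool only, and within sham by 5.40 ± 0.43. In members, 10 of its 13 UMIs in female stroke, 36 of 50 in female sham and 20 of 43 in male sham came from 1 cell each.

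Fos and Jun, the AP-1 genes that classically mark a fresh stimulus, were not called between members and other microglia. Fos stood at 149 and 151 CPM in stroke members against 148 and 152 CPM in other stroke microglia, and at 100.1 and 355 CPM in sham members against 88.5 and 332 CPM in other sham microglia. Jun stood at 655 and 696 CPM in stroke members against 733 and 837 CPM in other stroke microglia, and at 648 and 1053 CPM in sham members against 672 and 1343 CPM in other sham microglia. Neither passed the test, with log2 changes of -0.00 ± 0.14 and 0.11 ± 0.17 for Fos and -0.21 ± 0.12 and -0.23 ± 0.14 for Jun within stroke and within sham. Fosb, another FOS family gene, fell in members, with log2 changes of -0.53 ± 0.16 within stroke and -0.76 ± 0.24 within sham. Junb rose by 0.40 ± 0.12 and 0.51 ± 0.13. Male sham microglia of both kinds had the most Fos, so the level of Fos differed more between pools than between members and other microglia.

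Of the 25 immediate early genes listed, 23 were tested, of which 9 were higher and 1 lower within stroke and 10 higher and 3 lower within sham. Their median log2 change was 0.38 within stroke and 0.38 within sham. Over all genes tested, 2.51% were higher and 2.27% lower within stroke, and 5.53% and 4.36% within sham. These shares are to be read beside this list and each list below. The early genes of the list called higher in both were Atf3, Egr1, Egr2, Egr3, Ier2, Ier3, Junb, Maff and Myc. Ier3, an early gene that acts in cell survival, rose by 1.997 ± 0.19 within stroke and 2.99 ± 0.23 within sham, and Myc, a growth regulator, by 1.46 ± 0.22 and 1.62 ± 0.28. Maff, a small MAF factor, stood at no more than 31.6 CPM in any member sum. Nr4a1, an orphan nuclear receptor induced by many stimuli, passed the test within sham only (5.39 ± 0.58; stroke 1.74 ± 0.87), and Jund and Klf2 were lower within sham (-0.48 ± 0.14 and -0.67 ± 0.22). Of 8 tested genes for MAP kinase phosphatases and mRNA decay, 0 rose and 1 fell within stroke and 2 rose and 2 fell within sham. Zfp36l2, which destabilises mRNA, fell in both (-0.85 ± 0.14 within stroke, -1.38 ± 0.16 within sham), while Dusp1, the phosphatase of the early response, did not pass (0.48 ± 0.18 and 0.32 ± 0.24).

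**Figure D2:**
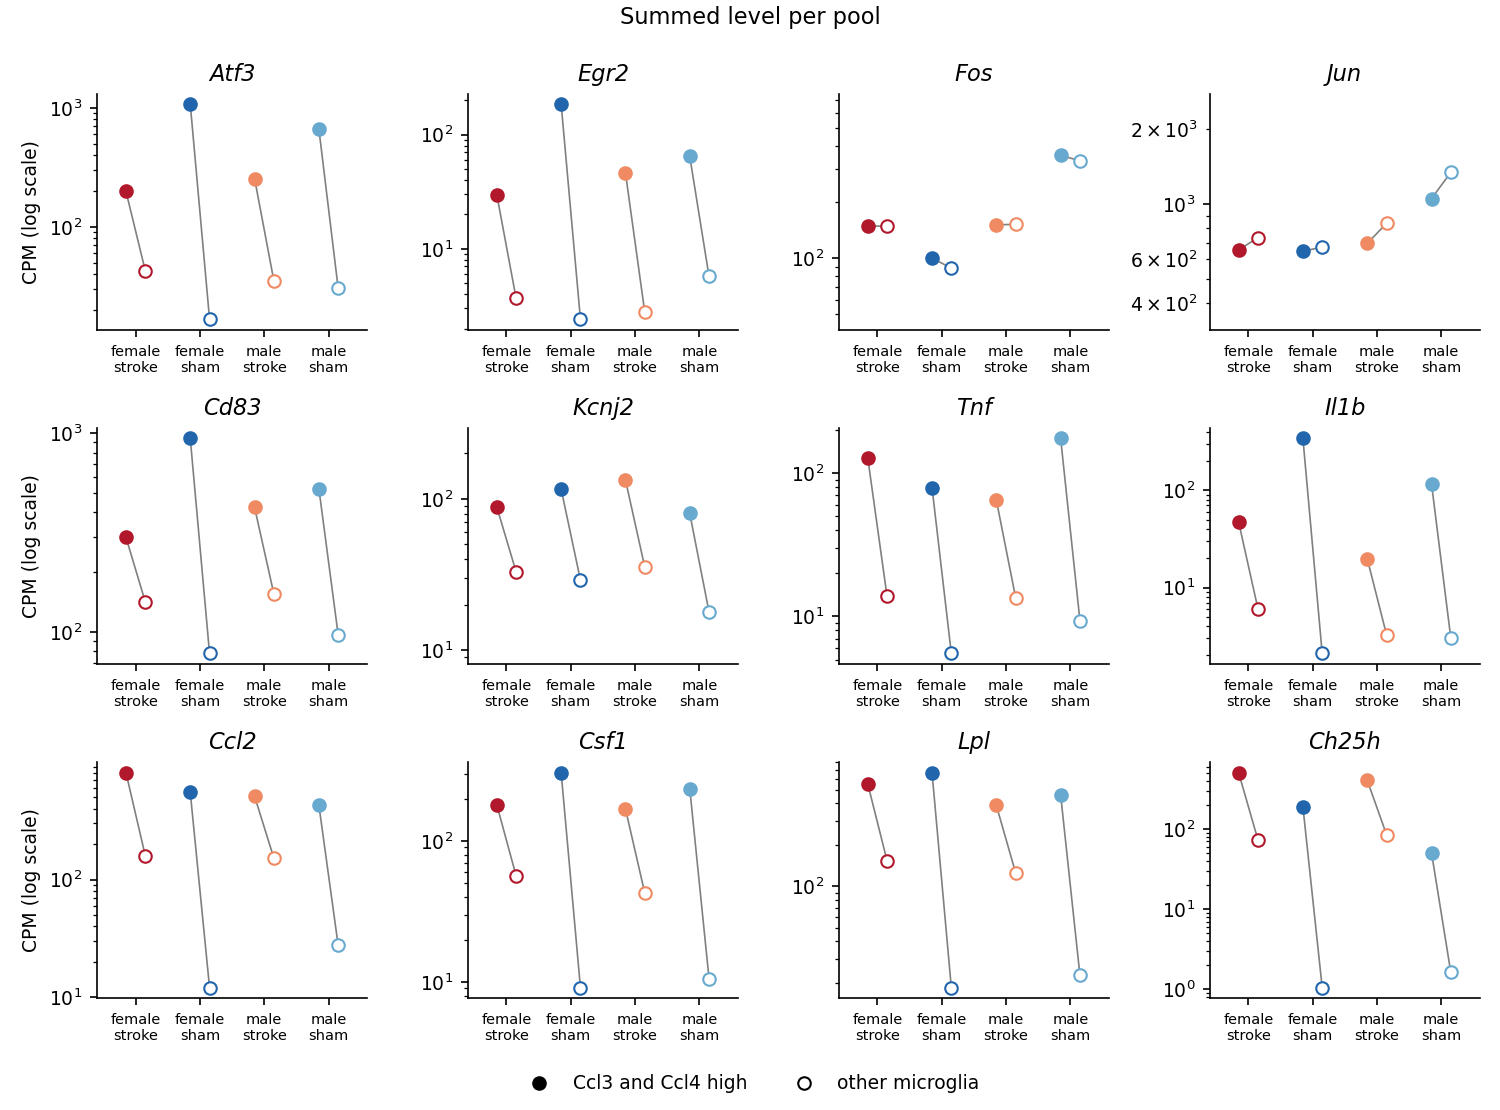
CPM on a log scale for 12 genes in the sums of each pool, filled points for Ccl3/Ccl4-high microglia and open points for other microglia, in the order female stroke, female sham, male stroke, male sham. Atf3, Egr2, Cd83, Kcnj2, Tnf, Il1b, Ccl2, Csf1, Lpl and Ch25h lie higher in members of every pool, whereas Fos and Jun do not.

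Members carried RNA of further chemokines beside Ccl3 and Ccl4. Of 15 listed chemokine genes 12 were tested, of which 7 were higher and 0 lower within stroke and 8 higher and 1 lower within sham, with median log2 changes of 0.997 and 1.85. Ccl2, which encodes the main ligand of the monocyte receptor CCR2, stood at 806 and 509 CPM in the Ccl3/Ccl4-high microglia of the female and male stroke pools, against 159.6 and 152 CPM in the other microglia. Its levels in sham were 548 and 428 CPM in the Ccl3/Ccl4-high microglia of the female and male sham pools, against 12.1 and 27.7 CPM in the other microglia. The log2 change was 2.05 ± 0.13 within stroke and 4.57 ± 0.16 within sham, with no overlap of members and other microglia. In female sham 67 of 104 Ccl2 UMIs came from 1 of 7 positive members, and in male stroke 156 of 385 from 1 of 35. Thinned to 3000 UMIs, Ccl2 was seen in 48.6%, 25%, 33.8% and 33.3% of members of female stroke, female sham, male stroke and male sham, against 17.7%, 2.33%, 16.2% and 5.14% of other microglia and at most 1.32% of neural cells (unthinned 68.2%, 35%, 43.2% and 46.7% of members and 28.1%, 3.87%, 28.5% and 8.07% of other microglia).

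Ccl12, in mice a further CCR2 ligand, rose by 1.31 ± 0.12 within stroke (1909 and 1082 CPM in stroke members against 555 and 619 CPM in other stroke microglia) and by 1.13 ± 0.16 within sham (132 and 524 CPM in sham members against 113 and 189.6 CPM in other sham microglia). In female sham it differed little, and the male pool carried the sham change. Ccl7 rose by 1.87 ± 0.38 within stroke and 3.89 ± 0.68 within sham at a low level, at most 54.2 CPM. Ccl6 and Ccl9, macrophage chemokines found in rodents, rose by 1.003 ± 0.13 and 0.99 ± 0.13 within stroke and by 2.18 ± 0.14 and 1.40 ± 0.17 within sham. Cxcl16, a chemokine that also exists bound to the membrane, rose by 0.70 ± 0.14 and 1.52 ± 0.19. Cxcl10, the interferon-induced ligand of CXCR3, stood at 45.7 and 51.5 CPM in stroke members against 17.9 and 18.3 CPM in other stroke microglia, and at 15.8 and 115 CPM in sham members against 1.96 and 3.32 CPM in other sham microglia. It rose by 1.42 ± 0.27 within stroke and 4.72 ± 0.37 within sham, but 34 of 39 UMIs of male stroke members and 53 of 66 of male sham members came from 1 cell each. Its stroke call was lost without either stroke pool (1.43, adjusted p 0.54, without female stroke; 1.31, adjusted p 0.33, without male stroke) and at a threshold of 40 per 10000 (0.83, adjusted p 0.43), and its sham call without male sham (3.00, adjusted p 0.11). The neutrophil chemokine Cxcl2 was at or near 0 in all 8 sums.

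Listed receptor genes moved in both directions, but their sum was lower in members of every pool. It stood at 366 and 448 CPM in female and male stroke members against 526 and 599 CPM in other stroke microglia. In sham it stood at 363 and 402 CPM in female and male members against 639 and 514 CPM in other microglia. Ccr1 fell within stroke (-1.34 ± 0.40) at 7.62 and 9.25 CPM in members against 25.2 and 15.6 CPM in other microglia. Ccrl2, a chemerin-binding receptor that does not signal to G proteins, was the gene of this list that rose (1.27 ± 0.27 within stroke, 1.70 ± 0.34 within sham). Of 4 tested receptor genes 1 rose and 2 fell within stroke, and 1 rose and 1 fell within sham.

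Cytokine genes were raised in part. Of 15 listed, 12 were tested, of which 7 were higher within stroke and 6 within sham and 0 lower in either, with medians of 1.36 and 0.83. Tnf, the gene of tumour necrosis factor, stood at 128 and 64.7 CPM in the Ccl3/Ccl4-high microglia of the female and male stroke pools, against 13.9 and 13.5 CPM in the other microglia. The sham pools had it at 79.01 and 174 CPM in the Ccl3/Ccl4-high microglia of the female and male sham pools, against 5.52 and 9.35 CPM in the other microglia. The groups did not overlap and the log2 change was 2.81 ± 0.22 within stroke and 4.11 ± 0.27 within sham. Of members, 42 of 110, 7 of 20, 22 of 81 and 32 of 75 had a Tnf UMI in the order female stroke, female sham, male stroke, male sham.

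Il1b, the gene of interleukin 1 beta, had the largest mean log2 change by the rule for named genes but lay in few cells. It stood at 47.4 and 19.8 CPM in the Ccl3/Ccl4-high microglia of the female and male stroke pools, against 6.07 and 3.27 CPM in the other microglia. Within sham it stood at 342 and 117 CPM in the Ccl3/Ccl4-high microglia of the female and male sham pools, against 2.097 and 3.01 CPM in the other microglia. All 4 pools were higher in members (2.83 ± 0.36 within stroke, 6.25 ± 0.35 within sham), yet only 13, 4, 5 and 6 members had a UMI, and 1 cell gave 42 of 65 UMIs in female sham and 35 of 67 in male sham. Without the female stroke pool the change within stroke was 2.53 (adjusted p 0.083), and at a mitochondrial limit of 5% it was 1.92 (adjusted p 0.055). Of the members with Tnf, 6, 3, 1 and 4 in the order female stroke, female sham, male stroke, male sham also had Il1b.

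Csf1, which encodes the growth factor that microglia need to survive, stood at 180.4 and 169 CPM in the Ccl3/Ccl4-high microglia of the female and male stroke pools, against 56.5 and 42.8 CPM in the other microglia. In the sham pools it stood at 305 and 235 CPM in the Ccl3/Ccl4-high microglia of the female and male sham pools, against 9.12 and 10.5 CPM in the other microglia. It rose by 1.81 ± 0.16 within stroke and 4.71 ± 0.20 within sham, with 62, 10, 36 and 29 members positive in the order female stroke, female sham, male stroke, male sham. Il1a rose by 0.90 ± 0.16 and 1.45 ± 0.18, Osm, the gene of oncostatin M, by 1.99 ± 0.30 and 2.49 ± 0.38, and Tnfsf9, the gene of the 4-1BB ligand, by 2.09 ± 0.60 and 2.43 ± 0.70. Il6, Il18 and Tgfb1 did not pass the test (0.79 ± 0.40, -0.30 ± 0.22 and -0.13 ± 0.13 within stroke; -0.04 ± 0.42, -0.42 ± 0.31 and 0.21 ± 0.15 within sham). Il12b was called within stroke on 34 UMIs from 2 female cells and 22 UMIs from 1 male cell.

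NF-kappaB genes moved in part. The subunit genes Nfkb1, Rel and Rela did not pass (0.23 ± 0.15, -0.19 ± 0.16 and 0.22 ± 0.20 within stroke; 0.29 ± 0.19, 0.10 ± 0.20 and 0.23 ± 0.25 within sham). Nor did the early inhibitor genes Nfkbia (0.25 ± 0.14 and 0.45 ± 0.17) and Tnfaip3 (-0.16 ± 0.28 and 0.504 ± 0.36). Nfkbiz and Nfkbid, which encode inhibitor-like proteins of the nucleus, rose (1.21 ± 0.21 and 1.67 ± 0.40 within stroke; 1.94 ± 0.31 and 3.16 ± 0.44 within sham). Zc3h12a, the gene of the RNase Regnase-1 that degrades cytokine mRNA, rose by 0.98 ± 0.28 and 1.19 ± 0.41. The survival genes Bcl2a1a, Bcl2a1b and Bcl2a1d were also called in both, but they are near-identical copies whose counts are uncertain. In all, 6 of 19 tested genes rose within stroke and 6 within sham, and 0 fell, with medians of 0.27 and 0.59.

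Surface genes of activation moved less than Cd83 itself. Of 15 tested, 4 rose and 1 fell within stroke, and 7 rose and 1 fell within sham, with medians of 0.22 and 0.47. Tlr2, a receptor of bacterial lipoproteins, stood at 436 and 412 CPM in stroke members against 195 and 196 CPM in other stroke microglia, and at 284 and 181 CPM in sham members against 77.2 and 69.3 CPM in other sham microglia. Its log2 change was 1.12 ± 0.13 within stroke and 1.59 ± 0.17 within sham. Cd14, the lipopolysaccharide co-receptor, and Gpr84, a fatty acid receptor induced by inflammation, rose by 0.78 ± 0.13 and 0.88 ± 0.13 within stroke and 0.63 ± 0.14 and 0.82 ± 0.17 within sham, although Gpr84 was not higher in female sham members (121 CPM, against 132 CPM in other microglia). The co-stimulatory Cd86, the adhesion gene Icam1 and the checkpoint ligand Cd274 passed within sham only (0.63 ± 0.15, 0.72 ± 0.19 and 2.18 ± 0.47; stroke -0.11 ± 0.14, 0.22 ± 0.15 and 0.38 ± 0.39). Ifngr1, a chain of the interferon gamma receptor, fell by -0.71 ± 0.13 and -0.92 ± 0.14.

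Of the channel genes, Kcnj2 was the only one called higher in both. Kcnk6, a 2-pore potassium channel gene, fell by -0.67 ± 0.16 within stroke and -1.01 ± 0.24 within sham. Kcnk13, which encodes the resting potassium channel THIK-1 of microglia, did not pass (0.20 ± 0.17 and 0.43 ± 0.22), nor did the proton channel gene Hvcn1 (0.06 ± 0.16 and -0.18 ± 0.22). Of the 10 tested, 1 rose and 1 fell within stroke and 2 rose and 3 fell within sham. Beside them, 2.51% of all genes rose and 2.27% fell within stroke, and 5.53% and 4.36% within sham. The sham calls on Kcnd1, Kcnk12 and Clic4 rest on low counts, with at most 45.3 CPM in any of their sham member sums.

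Genes of resting microglia outside the gate were lower in part. Of 30 tested, 1 rose and 8 fell within stroke, and 2 rose and 16 fell within sham, with medians of -0.26 and -0.39. Sall1, a transcription factor of microglial identity, stood at 130.4 and 143 CPM in the Ccl3/Ccl4-high microglia of the female and male stroke pools, against 239 and 229.5 CPM in the other microglia. Its levels in sham were 126 and 113 CPM in the Ccl3/Ccl4-high microglia of the female and male sham pools, against 365 and 264 CPM in the other microglia. It was lower in members of every pool (-0.79 ± 0.14 within stroke, -1.33 ± 0.18 within sham). The fructose transporter gene Slc2a5, the interleukin 10 receptor gene Il10ra, Crybb1, Slco2b1 and Csf1r, the receptor of the Csf1 product, were also called lower in both, by -0.68, -0.82, -0.94, -0.65 and -0.41 within stroke and -1.40, -1.23, -0.73, -0.94 and -0.39 within sham.

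Cx3cr1, the fractalkine receptor gene of microglia, stood at 2109.5 and 2458 CPM in stroke members against 2572 and 2629 CPM in other stroke microglia, and at 3018 and 2859 CPM in sham members against 5109 and 3977 CPM in other sham microglia. It fell within sham (-0.61 ± 0.13) and did not pass within stroke (-0.19 ± 0.12), and the difference between the 2 changes did not pass either (adjusted p 0.463). Trem2 and Cd81, genes all microglia express, did not pass in either (0.05 and -0.00 within stroke; 0.06 and -0.11 within sham). Gpr183, the receptor of oxysterols made from 25-hydroxycholesterol, rose by 0.65 ± 0.13 and 0.83 ± 0.14.

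Ch25h and Lpl, a pair of lipid genes, were among the strongest changes. Ch25h, the enzyme that makes 25-hydroxycholesterol, stood at 506 and 407 CPM in the Ccl3/Ccl4-high microglia of the female and male stroke pools, against 73.8 and 85.3 CPM in the other microglia. The sham pools had it at 189.6 and 50.5 CPM in the Ccl3/Ccl4-high microglia of the female and male sham pools, against 1.05 and 1.62 CPM in the other microglia. Stroke members had more Ch25h than sham members, while other sham microglia had almost none, so that the log2 change was 2.53 ± 0.13 within stroke (adjusted p 4.06e-76; 0.083 by DESeq2) and 6.12 ± 0.33 within sham. Of members, 53 of 110, 3 of 20, 28 of 81 and 9 of 75 had a UMI in the order female stroke, female sham, male stroke, male sham, and 29 of the 36 UMIs of female sham came from 1 cell. Thinned to 3000 UMIs, 40.95%, 15%, 32.4% and 5.33% of members and 7.62%, 0.141%, 9.12% and 0.351% of other microglia had Ch25h, against at most 0.543% of neural cells (unthinned 48.2%, 15%, 34.6% and 12% of members and 14.4%, 0.384%, 15.4% and 0.676% of other microglia).

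Lpl, lipoprotein lipase, stood at 556 and 387 CPM in the Ccl3/Ccl4-high microglia of the female and male stroke pools, against 154 and 126 CPM in the other microglia. Within sham it stood at 669 and 461 CPM in the Ccl3/Ccl4-high microglia of the female and male sham pools, against 18.5 and 22.7 CPM in the other microglia. It rose by 1.74 ± 0.13 within stroke and 4.71 ± 0.16 within sham, with a UMI in 82, 7, 40 and 26 members in the order female stroke, female sham, male stroke, male sham, but 97 of the 127 UMIs of female sham came from 1 cell. That same cell gave the 29 Ch25h UMIs above and 12 of the 22 Kcnj2 UMIs of female sham members. Most members with Ch25h also had Lpl, 49 of 53 in female stroke, 2 of 3 in female sham, 22 of 28 in male stroke and 8 of 9 in male sham. Of the 11 tested genes of sterol synthesis and efflux, Ch25h among them, Ch25h was the one called higher within stroke and within sham, and Abca1, a cholesterol exporter gene, was called lower within sham (-0.502 ± 0.18).

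Lpl belongs to the genes known from disease-associated microglia, which were higher in members of sham in particular. Of 23 tested, 7 rose and 4 fell within stroke, with a median of 0.24. Within sham 20 rose and 0 fell, with a median of 1.22, and for 13 genes the change in stroke was below that in sham by the test of the difference. Lilrb4a, an inhibitory receptor, rose by 1.79 ± 0.13 within stroke (339 and 350.03 CPM in stroke members against 108 and 90.8 CPM in other stroke microglia) and by 3.91 ± 0.25 within sham (52.7 and 139 CPM in sham members against 6.24 and 7.69 CPM in other sham microglia). Lgals3, the gene of galectin 3, stood at 239.7 and 133 CPM in stroke members against 146 and 71.2 CPM in other stroke microglia, and at 68.5 and 157 CPM in sham members against 3.601 and 17.2 CPM in other sham microglia, and rose by 0.79 ± 0.15 and 3.38 ± 0.24. Ank, Capg, Cd9 and Cst7 rose in both. In female sham members, 27 of the 36 Cst7 UMIs and 183 of the 402 Apoe UMIs came from 1 cell each. Apoe, Fabp5, Gpnmb and Lyz2 fell within stroke (-0.59 ± 0.12, -0.53 ± 0.17, -1.86 ± 0.57 and -0.46 ± 0.12). Other stroke microglia already held more of these genes than other sham microglia: the list summed to 44968 and 43466 CPM in other microglia of female and male stroke and 19624 and 21405 CPM in those of female and male sham. In members it summed to 47744 and 50682 CPM in stroke and 39403 and 30381 CPM in sham. Spp1 and Igf1, in the same state, are part of the rule and were held under a limit in both kinds of cell.

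Genes of glycolysis and the response to low oxygen were partly raised. Of 20 tested 8 rose and 1 fell within stroke, and 11 rose and 0 fell within sham, with medians of 0.39 and 1.02. Hif1a, the oxygen-sensitive transcription factor, stood at 297 and 287 CPM in stroke members against 189 and 176 CPM in other stroke microglia, and at 305 and 294 CPM in sham members against 100.5 and 109 CPM in other sham microglia. It rose by 0.68 ± 0.13 within stroke and 1.5001 ± 0.16 within sham. Slc2a1, the glucose transporter gene, rose by 0.90 ± 0.22 and 1.94 ± 0.25, and Pfkfb3, a regulator of glycolysis, by 0.67 ± 0.16 and 1.07 ± 0.21. Ldha, Pgk1 and Tpi1, enzymes of the pathway, were also called higher in both, while Hk2, hexokinase 2, fell within stroke (-0.40 ± 0.13).

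Heat shock genes, a common sign of stress during preparation, were raised for 4 of 9 tested within stroke and 6 within sham, and none was called lower, with medians of 0.45 and 0.87. Hsp90aa1 rose by 0.63 ± 0.13 and 1.43 ± 0.15 and Hspd1, a mitochondrial chaperone gene, by 0.74 ± 0.14 and 1.11 ± 0.17. Dnajb1, a cochaperone gene that responds early to heat, did not pass (0.03 ± 0.25 and 0.22 ± 0.32), and the inducible Hspa1a stood at no more than 15.8 CPM in any sum. The part of the preparation in these values was not tested.

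The receptors of complement fragments rose, while complement itself did not. C5ar1 rose by 1.14 ± 0.13 within stroke and 2.18 ± 0.16 within sham, and C3ar1 by 0.79 ± 0.13 and 1.56 ± 0.15. C1qa, C1qb and C1qc, subunits of the first component, did not pass (-0.05, -0.11 and -0.09 within stroke; -0.05, 0.17 and -0.02 within sham). Of the 9 tested, 2 rose in each treatment, and 1, C4b, fell within stroke (-1.59 ± 0.41).

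Interferon response genes outside the gate did not rise within stroke. Of 20 tested 0 rose and 3 fell within stroke, and 3 rose and 0 fell within sham, with medians of -0.36 and -0.12. Ifi27l2a fell by -1.06 ± 0.13 and Ifitm3 by -0.54 ± 0.14 within stroke, where cells rich in interferon genes had been removed from both kinds of cell. Slfn2 fell within stroke (-0.49 ± 0.15) and rose within sham (0.67 ± 0.22), and the difference passed the test (adjusted p 0.00341). Cell cycle genes outside the gate rose for 3 of 18 tested within stroke and 5 within sham, 0 falling, with medians of 0.50 and 1.29. The called ones were mostly DNA replication genes such as Pcna (0.83 ± 0.15 and 1.59 ± 0.21) and Mcm6 (0.98 ± 0.23 and 1.29 ± 0.44), whereas the mitotic Ccnb1 and Cdc20 did not pass and stood at no more than 5.08 CPM in any member sum.

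Of lysosome and phagocytosis genes 1 of 13 tested rose within stroke and 5 within sham, and 0 fell, with medians of -0.08 and 0.39. Of all genes tested, 2.51% rose within stroke and 5.53% within sham. The lysosome gene called in both was Atp6v0c, a subunit of the proton pump of lysosomes (0.51 ± 0.12 and 1.35 ± 0.13). Of 6 tested prostaglandin and nitric oxide genes, Ptger4, a prostaglandin E2 receptor, rose in both (1.64 ± 0.38 and 4.32 ± 0.67), Ptgs2 within stroke on a low level (at most 9.32 CPM), and Ptgs1 fell within sham (-0.78 ± 0.15). The list counts were 2 higher and 0 lower within stroke and 1 higher and 1 lower within sham, with medians of 0.08 and -0.24.

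**Figure D3:**
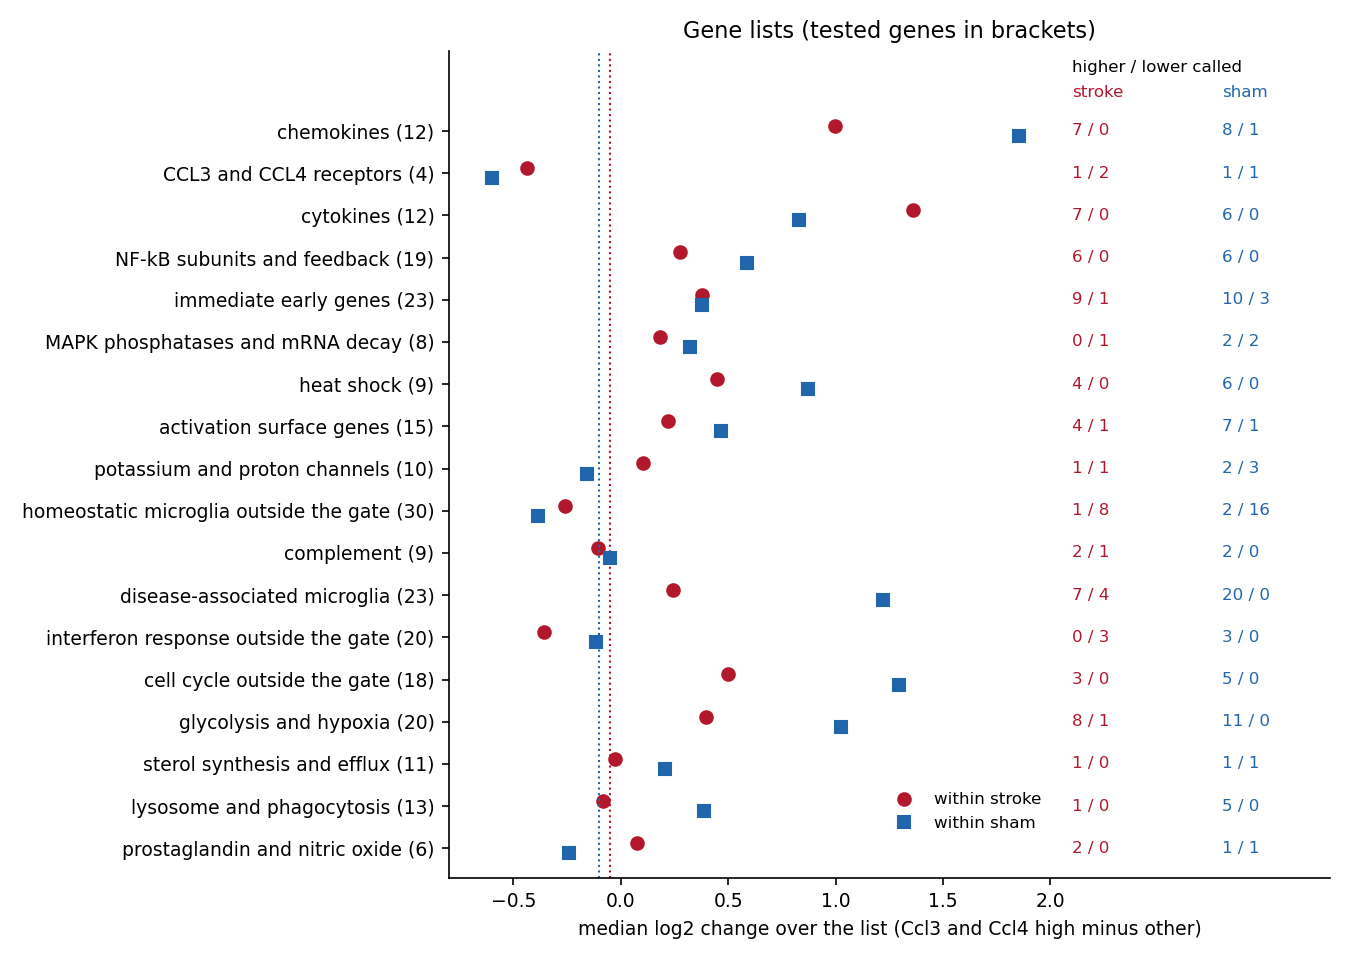
Median log2 change of members against other microglia for each of the 18 gene lists, red circles within stroke and blue squares within sham, with the counts of genes called higher and lower at the right. The dotted lines are the medians of all 13288 genes, -0.05 within stroke and -0.10 within sham. Of all these genes 2.51% were called higher and 2.27% lower within stroke, and 5.53% and 4.36% within sham. Chemokines stand highest within sham at 1.85, and disease-associated genes are at 0.24 within stroke and 1.22 within sham.

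The 15 genes outside the rule with the largest mean log2 change, called in both treatments and higher in members of all 4 pools, were Il1b, Ch25h, Gadd45b, Nes, Egr2, Atf3, Gm13889, Tnf, Gas2l3, Plaur, Ccl2, Csf1, Fam20c, Lpl and Cxcl10. Plaur, the urokinase receptor, stood at 137 and 103 CPM in the Ccl3/Ccl4-high microglia of the female and male stroke pools, against 23.2 and 18.4 CPM in the other microglia. In the sham pools it stood at 205 and 244 CPM in the Ccl3/Ccl4-high microglia of the female and male sham pools, against 11.8 and 14.1 CPM in the other microglia, with log2 changes of 2.53 ± 0.18 within stroke and 4.12 ± 0.21 within sham. Nes, the intermediate filament gene nestin, rose by 2.68 ± 0.23 (142 and 56.8 CPM in stroke members against 17.1 and 12.99 CPM in other stroke microglia) and 5.58 ± 0.30 (132 and 134 CPM in sham members against 2.14 and 3.21 CPM in other sham microglia). Fam20c, a kinase gene of the secretory pathway, rose by 2.35 ± 0.29 and 4.13 ± 0.37. None of these 3 lost its call without any single pool.

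Gadd45b, a stress-induced gene of growth arrest, rose by 2.44 ± 0.43 within stroke and 5.90 ± 0.40 within sham, and its stroke call was lost without female stroke (2.62, adjusted p 0.12) or male stroke (2.22, adjusted p 0.054) and at a mitochondrial limit of 5% (1.52, adjusted p 0.33). Gas2l3, which links actin and microtubules, rose by 2.01 ± 0.34 and 4.71 ± 0.42, and lost its stroke call likewise (2.21, adjusted p 0.12, without female stroke; 1.75, adjusted p 0.16, without male stroke). Gm13889 rose by 2.95 ± 0.37 and 4.01 ± 0.26. Its stroke value was 1.66 (adjusted p 0.61) without the male stroke pool, and 61 of its 72 UMIs in female sham members came from 1 cell.

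The 10 lowest genes by the same rule were Il7r, Mxd4, Snn, Enpp2, Gm10790, Hist3h2a, Clec4a2, Gbp7, Il16 and Thrsp. Il7r, the interleukin 7 receptor alpha chain, stood at 11.9 and 11.9 CPM in the Ccl3/Ccl4-high microglia of the female and male stroke pools, against 43.6 and 41.6 CPM in the other microglia. Its levels in sham were 26.3 and 17.4 CPM in the Ccl3/Ccl4-high microglia of the female and male sham pools, against 64.5 and 64.8 CPM in the other microglia. It was lower in members of all pools (-1.85 ± 0.29 within stroke, -1.71 ± 0.35 within sham), the sham call being lost without male sham (-1.30, adjusted p 0.22). Snn, the gene of stannin, fell by -1.89 ± 0.26 and -1.36 ± 0.28, and kept both calls without any single pool. Clec4a2, an inhibitory lectin receptor, fell by -1.53 ± 0.22 and -1.29 ± 0.25, the sham call being lost without male sham (-0.78, adjusted p 0.3).

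The other 7 fell by less or held less firmly within stroke. Il16, the gene of a chemoattractant cytokine, changed by -1.24 ± 0.22 within stroke and -1.43 ± 0.27 within sham, Thrsp, a regulator of fat synthesis, by -1.09 ± 0.20 and -1.48 ± 0.26, and Gm10790 by -1.30 ± 0.25 and -1.62 ± 0.30. All 3 lost the stroke call without female stroke (-0.99, -0.88 and -1.18, adjusted p 0.54, 0.58 and 0.53). Mxd4, a repressor that pairs with MAX, changed by -0.85 ± 0.18 and -2.504 ± 0.34, the histone gene Hist3h2a by -1.07 ± 0.24 and -1.76 ± 0.41, and Gbp7, an interferon-induced GTPase gene, by -1.14 ± 0.24 and -1.66 ± 0.34. Without female stroke their stroke values were -0.72, -1.04 and -1.22 (adjusted p 0.96, 0.63 and 0.38), and without male stroke -1.04, -1.20 and -1.17 (adjusted p 0.066, 0.18 and 0.16). Hist3h2a also lost its sham call without female sham (-1.28, adjusted p 0.055) and was at -3.58 without male sham.

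Enpp2, autotaxin, changed by -1.06 ± 0.34 and -1.91 ± 0.26, and its stroke call was lost without female stroke (-1.19, adjusted p 1) or male stroke (-1.05, adjusted p 0.63). That call was also lost by DESeq2, with cells thinned, at a threshold of 40 per 10000, with no filter on low counts, with no pool block and at a mitochondrial limit of 5% (-1.40 to -0.98, adjusted p 0.052 to 0.54), and the sham call with no pool block (-1.60, adjusted p 0.081). It is also a marker of the choroid plexus, and the choroid plexus marker Ttr moved with it. Ttr stood at 192 and 148 CPM in stroke members against 298 and 277 CPM in other stroke microglia, and at 411 and 1354 CPM in sham members against 1040.1 and 4134 CPM in other sham microglia. It fell by -0.75 ± 0.14 within stroke and -1.51 ± 0.14 within sham. The part of choroid plexus RNA in the value of Enpp2 was not tested.

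Members and other microglia differed more within sham than within stroke. The defining genes did so too. The log2 change of Ccl4 was 9.49 and 7.91 in female and male sham, and 5.73 and 5.93 in female and male stroke. That of Ccl3 was 7.53 and 6.15 in sham, and 4.39 and 4.98 in stroke. The part of this wider gap in the differences below was not tested. The change in stroke minus that in sham passed the test for 151 of 13288 genes (1.14%), above zero for 23 (0.173%) and below zero for 128 (0.963%). All 128 were called higher in members within sham, and 66 of them within stroke too. Of the 23, 20 were called lower within sham. The count was 1 above and 24 below without female stroke, 0 and 27 without male stroke, 14 and 121 without female sham, 52 and 275 without male sham and 0 and 25 with no pool block.

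Atf3 was among the genes with a lesser rise in stroke, the difference being log2 -2.62 ± 0.20 (adjusted p 1.65e-36). The difference was -1.71 ± 0.19 for Cd83 (adjusted p 1.03e-16), -2.97 ± 0.19 for Lpl, -2.51 ± 0.20 for Ccl2, -2.90 ± 0.24 for Csf1 and -3.59 ± 0.32 for Ch25h. For Atf3, Cd83 and Csf1 sham members held more than stroke members, and other sham microglia held less than other stroke microglia. For Ch25h stroke members held more, and other sham microglia were at 1.05 and 1.62 CPM, so the same sign came from the other side of the ratio. Ccl2 was likewise higher in stroke members (806 and 509 CPM against 548 and 428 CPM), with other microglia at 159.6 and 152 CPM in stroke and 12.1 and 27.7 CPM in sham. For Lpl the member sums overlapped (556 and 387 CPM in stroke, 669 and 461 CPM in sham). Its other microglia stood at 154 and 126 CPM in stroke and 18.5 and 22.7 CPM in sham. For Kcnj2 the difference was -0.43 ± 0.29 (adjusted p 0.911), with a standard error that leaves room for either direction.

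The 5 lowest differences among genes with at least 50 CPM in a sum were Olfr1423, Gdf15, Nr4a1, Ch25h and Gadd45b. Gdf15, a stress-induced hormone of the TGF-beta family, stood at 5.93 and 2.64 CPM in stroke members against 0.765 and 0.752 CPM in other stroke microglia, and at 68.5 and 31.3 CPM in sham members against 0.182 and 0.464 CPM in other sham microglia, a difference of -4.47 ± 1.11 that was -5.21 (adjusted p 0.4) without female stroke, -4.04 (adjusted p 0.92) without male stroke and -3.49 (adjusted p 0.26) without female sham. Nr4a1 stood at 2.54 and 6.604 CPM in stroke members against 1.27 and 1.23 CPM in other stroke microglia, and at 184 and 24.4 CPM in sham members against 1.46 and 1.97 CPM in other sham microglia, a difference of -3.65 ± 0.90 that was -2.99 (adjusted p 1), -4.38 (adjusted p 0.31) and -1.88 (adjusted p 0.8) without the same pools in the same order. Gadd45b had -3.46 ± 0.55, and -3.23 (adjusted p 0.059) without female stroke. Olfr1423 was an olfactory receptor gene whose 15 UMIs in female sham members all came from 1 cell, and its fitted difference is no bound.

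The 5 highest were Gm34455, Mxd4, Znrf2, Tet2 and Ccz1. Gm34455, a long noncoding RNA, stood at 43.2 and 284 CPM in stroke members against 64.4 and 62.97 CPM in other stroke microglia, and at 36.9 and 24.4 CPM in sham members against 76.3 and 63.2 CPM in other sham microglia. The male stroke members alone stood apart, 79 of their 215 UMIs came from 1 cell, and the difference of 2.32 ± 0.34 was 0.71 (adjusted p 1) without that pool. Tet2, which oxidises methylated cytosine, stood at 49.96 and 76.6 CPM in stroke members against 50.7 and 51.5 CPM in other stroke microglia, and at 26.3 and 20.9 CPM in sham members against 53.9 and 46.1 CPM in other sham microglia, with a difference of 1.38 ± 0.40 that fell short of the threshold without any 1 of the 4 pools (1.11 to 1.67). The difference was 1.66 ± 0.43 for Mxd4, 1.66 ± 0.40 for the ubiquitin ligase gene Znrf2 and 1.14 ± 0.30 for Ccz1, which acts in endosome maturation. Each lost its call without at least 3 of the 4 pools, with values of 1.52 to 1.84 for Mxd4, 1.56 to 1.80 for Znrf2 and 0.74 to 1.23 for Ccz1.

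**Figure D4:**
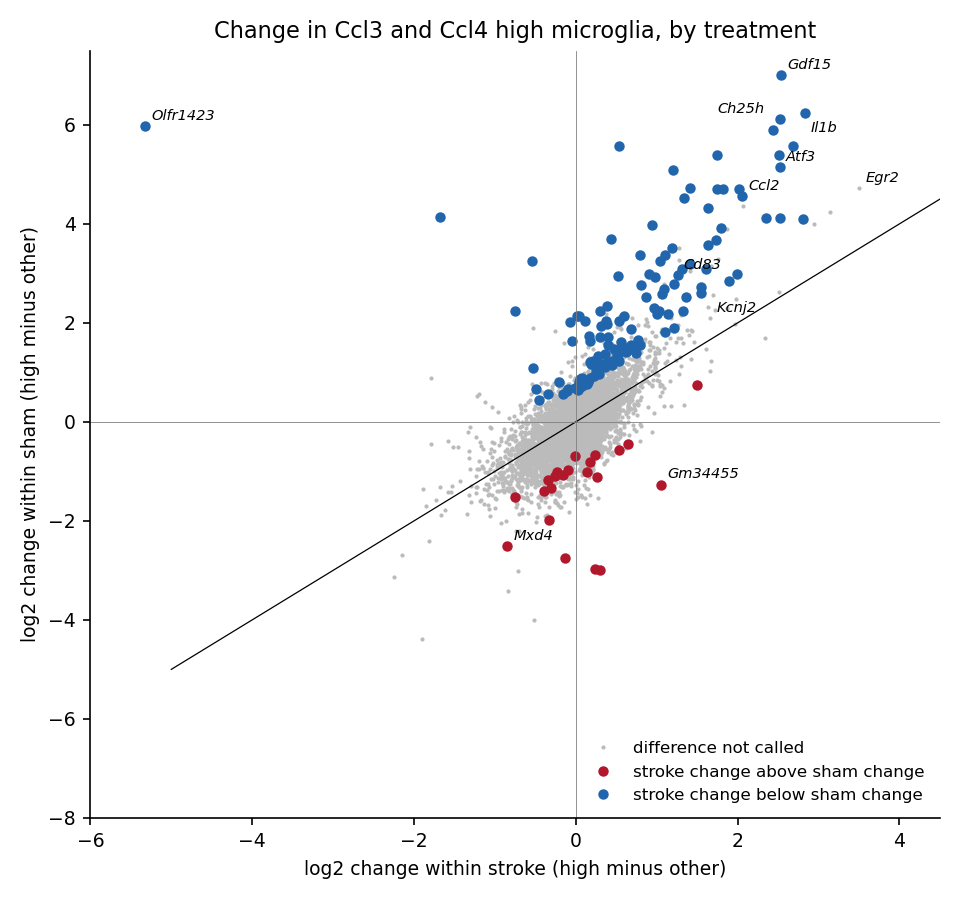
Log2 change of members against other microglia within stroke (horizontal axis) and within sham (vertical axis), 1 point a gene for 6516 genes, with the line of equality. Genes whose difference passed the test are coloured, and 3 genes fall outside the axes. Atf3 at 5.14 within sham and 2.52 within stroke, Il1b, Ch25h and Ccl2 lie above the line, and Gm34455 and Mxd4 under it.

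Stroke members were then set against sham members directly, with sex as a term and CPM scaled over the 4 member sums alone, so that they differ slightly from those above. Of 7181 genes tested 74 were higher (1.03%) and 51 lower (0.71%) in stroke members, 1.74% in all, with a median log2 change of -0.02. The 4 member sums leave 1 residual degree of freedom. With 1 pool left out, and then without the sex term, the counts were 46 higher and 27 lower without female stroke, 298 and 115 without female sham, and 179 and 207 without male sham. DESeq2 called 21 higher and 10 lower. With cells thinned to 3000 UMIs edgeR called 0 and 0 (440 of 3905 genes at an unadjusted p under 0.05; DESeq2 was not run on these), so every gene named next lost its call there or was not tested.

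The highest in stroke members by the rule for named genes were Anxa2, Slc2a6, Fn1, Dab2, Ifitm3, Ifi27l2a, Lgals1 and Gm34455. Fn1, fibronectin, stood at 355 and 271 CPM in female and male stroke members against 0 and 22.9 CPM in sham members (4.17 ± 0.42, adjusted p 1.13e-06; 10.81 without male sham). Of these UMIs, 125 of 423 in female stroke, 59 of 208 in male stroke and 12 of 13 in male sham members came from 1 cell each. In the scaling of the 8 sums, other microglia stood at 240.4 and 228 CPM in stroke and 0.819 and 1.39 CPM in sham. The rise of Fn1 in stroke was thus not particular to members. Fn1 is also one of 8 monocyte and macrophage markers. In stroke these 8 summed to 378 and 293 CPM in members, of which Fn1 held 358 and 275 CPM, against 393 and 296 CPM in other microglia, of which Fn1 held 240.4 and 228 CPM. Within stroke 1 of the 8 was called higher and 6 lower in members. In sham they summed to 0 and 26.1 CPM in members, against 14.4 and 21.4 CPM in other microglia. F10 was at 0 in all members. Without cells that carried markers of other immune cells, Fn1 itself not counted as one, the change of Fn1 was 4.06 (adjusted p 3.5e-07). It missed the threshold at a mitochondrial limit of 5% (2.41, adjusted p 0.089), by DESeq2 (5.57, adjusted p 0.25) and with cells thinned (8.79, adjusted p 0.07).

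Dab2, an endocytic adaptor gene, stood at 194 and 119.7 CPM in stroke members against 11.03 and 12.3 CPM in sham members (3.53 ± 0.43, adjusted p 1.21e-05). Slc2a6, a lysosomal hexose transporter gene, stood at 86.6 and 76.8 CPM against 5.51 and 3.52 CPM (4.23 ± 0.59). Ifi27l2a and Ifitm3, interferon-induced genes outside the rule, changed by 3.17 ± 0.34 and 3.35 ± 0.37, and Lgals1, galectin 1, by 2.60 ± 0.36. Both stroke sums lay above both sham sums for each of these genes. Other microglia showed the same order for each, in the CPM of the 8 sums. Ifi27l2a stood at 787 and 1023 CPM in other stroke against 36.4 and 50.5 CPM in other sham microglia. Dab2 stood there at 92.98 and 71.5 CPM against 13.3 and 13.6 CPM. Ifi27l2a and Ifitm3 were higher in other stroke microglia than in stroke members. The test of the difference called none of these genes, so their change is not shown to be particular to members. Anxa2, annexin 2, changed by 4.65 ± 0.86, with 1 UMI in female sham and 0 in male sham members, and was 4.07 (adjusted p 0.5) without female stroke and 8.49 without female sham. Gm34455 (2.58 ± 0.50) was 0.57 (adjusted p 0.91) without male stroke and 2.67 (adjusted p 0.051) without female sham.

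Among the lowest were Meg3, Egr3, Nr4a1, Gdf15, Gm13889, Il1b and Gadd45b. Egr3 stood at 10.9 and 0 CPM in stroke members against 276 and 75.7 CPM in sham members (-4.98 ± 0.47, adjusted p 7.76e-07; -9.32 without female stroke). Il1b stood at 47.1 and 19.5 CPM against 358 and 118 CPM (-2.79 ± 0.32, adjusted p 5.37e-06; -1.68 without female sham). Gadd45b stood at 23.5 and 20.8 CPM against 215 and 89.7 CPM (-2.69 ± 0.37). For these 3 early and stress genes the 2 stroke sums did not overlap the 2 sham sums. They were named for passing the test on these same sums, so this adds no support. Of the Egr3 UMIs, 36 of 50 in female sham members and 20 of 43 in male sham members came from 1 cell each. Of 22 tested immediate early genes 0 were higher and 6 lower in stroke members, with a median of -0.66, beside 1.03% of all genes higher and 0.71% lower.

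Nr4a1 changed by -4.48 ± 0.67, and by -2.47 (adjusted p 0.093) without female sham. Gdf15 changed by -3.55 ± 0.61, and Gm13889 by -3.18 ± 0.53 (-4.97 without male stroke). Meg3, a neuronal RNA, changed by -5.40 ± 0.62. Where the remaining stroke or sham sum had no UMI, as for Fn1 without male sham, Egr3 without female stroke and Anxa2 without female sham, the fitted value is no bound. The 5 neuron markers, Meg3 among them, summed to 2.54 and 6.60 CPM in stroke members and 57.9 and 188 CPM in sham members, and to 8.40 and 8.37 CPM in other stroke and 257 and 333 CPM in other sham microglia. These markers were more plentiful in both kinds of sham cell, and its part in the other values was not tested.

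Of 22 tested disease-associated genes 3 were higher and 0 lower in stroke members, with a median of 0.36, beside 1.03% of all genes higher and 0.71% lower. Of 17 tested NF-kappaB genes and 8 heat shock genes none was called in this comparison, with medians of -0.29 and -0.11, which does not show that they were equal. Of 7 tested chemokine genes 1 was higher in stroke members and 0 lower (median 0.50), and of 30 resting microglia genes 0 were higher and 4 lower (median -0.17).

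Members differed widely among themselves. Of the 6 genes Atf3, Cd83, Ccl2, Csf1, Lpl and Tnf, at least 4 were detected in 68 of 110 female stroke, 11 of 20 female sham, 35 of 81 male stroke and 33 of 75 male sham members. All 6 were detected in 14, 0, 2 and 1 members, and none in 0, 0, 4 and 6. Atf3 and Cd83 were detected together in 60, 19, 42 and 41 members in the same order of pools, and Ccl2 with Ch25h in 43, 2, 20 and 7. Cells were not thinned for these counts, and female stroke members were the deepest, with a median of 9568 UMIs.

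The levels of several genes were already higher in cells just below the threshold. In CPM without TMM scaling, Atf3 in male sham microglia stood at 27.0 in cells under 1 per 10000 of Ccl3 and Ccl4, 45.1 at 1 to 5, 106 at 5 to 20, 384 at 20 to 40, 420 at 40 to 100 and 1328 at 100 or more. In female stroke microglia it stood at 28.3, 46.3, 103, 169, 207 and 223 over the same ranges, in male stroke at 23.5, 41.9, 86.0, 157, 154 and 735. In female sham it stood at 16.2, 21.1 and 161 in the lowest 3 ranges and at 534 at 40 to 100, while the ranges of 20 to 40 and of 100 or more held only 2 and 7 cells. Cells just below the threshold thus already had several times the Atf3 of cells with almost no Ccl3 and Ccl4. Cd83 ran from 114 in the lowest to 552 in the highest range in female stroke, from 133 to 525 in male stroke and from 93.4 to 635 in male sham. Fos showed no such order, at 131, 139, 192, 120, 173 and 155 in female stroke and 328, 399, 856, 232, 554 and 346 in male sham. Cx3cr1 in male sham ran at 4379, 4061, 3870, 2873, 3178 and 2834, and in female stroke stood at 2502 in the lowest and 2283 in the highest range.

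**Figure D5:**
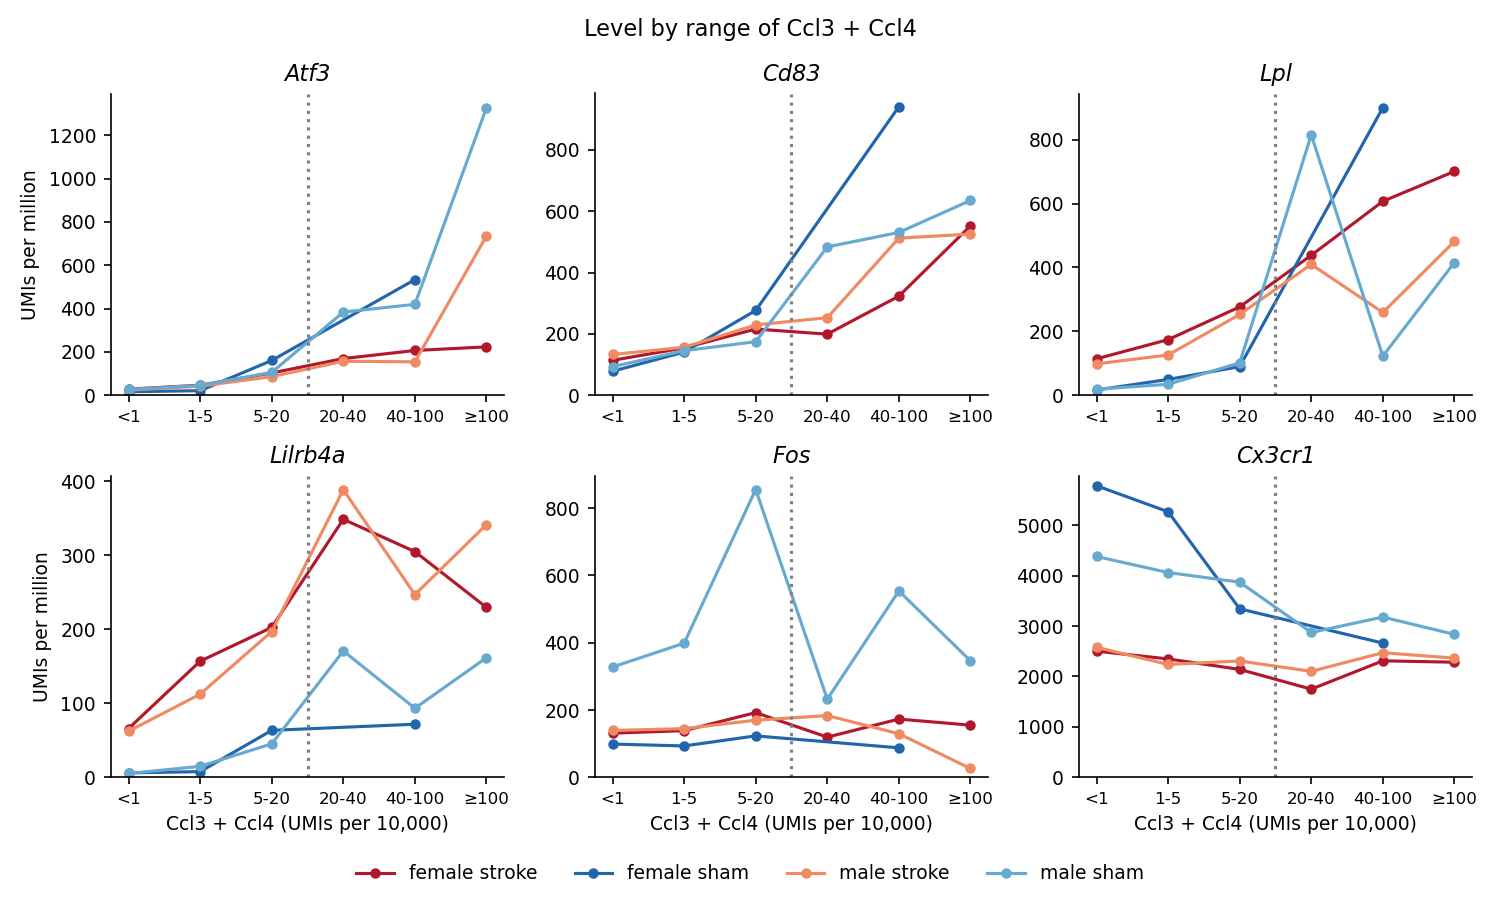
CPM without TMM scaling of Atf3, Cd83, Lpl, Lilrb4a, Fos and Cx3cr1 in microglia grouped by the summed level of Ccl3 and Ccl4 per 10000, 1 line a pool, the dotted line marking the threshold of 20. Ranges with fewer than 10 cells are left out, which in female sham are those with 2 and 7 cells. Atf3 is higher in each range above the threshold than in each range below it in every pool, Cd83 likewise apart from female stroke, whereas Fos has no steady order.

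Across single microglia of a pool, thinned to 3000 UMIs, the gene with the highest mean likeness to Ccl3 and Ccl4 was Atf3, with a mean Pearson r of 0.321 over the 4 pools (0.281 in female stroke, 0.446 in female sham, 0.220 in male stroke and 0.337 in male sham). The next were Ccl2 (0.231), Cd83 (0.213), the tetraspanin gene Cd9 (0.203), the transcriptional inhibitor gene Id2 (0.198), Lpl (0.191), the lysosomal transporter gene Slc15a3 (0.185), Csf1 (0.181), Lilrb4a (0.180) and Plek (0.163). These r are descriptions over 2204, 2848, 2037 and 4067 cells of the female stroke, female sham, male stroke and male sham pools, which share a library, and 6676 genes were ranked. The highest single r was that of Ccl2 in female stroke (0.309) and of Cd9 in male stroke (0.246), and that of Atf3 in both sham pools. All were low to moderate.

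Members carried the markers of microglia at a lower level than other microglia did. The 7 listed markers outside the gate summed to 14307.5, 17643.5, 16923 and 17416 CPM in members of female stroke, female sham, male stroke and male sham, against 17664, 22420, 18525 and 21567 CPM in other microglia. Of the 7, 2 were called lower within stroke and 5 within sham, and 0 higher in either. Of lymphocyte markers, Cd3e, Trbc2, Nkg7, Cd8a, Cd79a and Ms4a1 were at 0 in all members. Cd79b, a chain of the B cell receptor, stood at 30.5, 10.5, 25.1 and 26.1 CPM in members in the same order, against 47.1, 34.96, 40.1 and 41.01 CPM in other microglia. Klrb1c, a natural killer cell receptor, had 2 UMIs in members of each stroke pool, and Cd3d had 1 UMI in male sham members. The 6 markers of border-associated macrophages summed to 26.2, 5.26, 14.5 and 1.74 CPM in members of female stroke, female sham, male stroke and male sham, against 78.2, 31.7, 48.4 and 38.8 CPM in other microglia, with Lyve1 and Cd163 at 0 in all members. The 6 neutrophil markers summed to 245, 184, 156 and 120 CPM in members against 331, 188, 174 and 167 CPM in other microglia. Both of these sums were lower in members than in other microglia of every pool. Csf3r held most of the neutrophil sum, 142, 179, 153 and 106 CPM in members against 173, 183, 168 and 152 CPM in other microglia. Single neutrophil markers went both ways, with Cxcr2 at 9.31 against 5.76 CPM in female stroke and 0 against 1.46 CPM in female sham. The oligodendrocyte and dendritic cell sums were lower in members of every pool but male sham (179 against 121 and 12.2 against 11.5 CPM).

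Of mitochondrial UMIs members had a median of 5.12%, 2.26%, 4.79% and 1.23% in the order female stroke, female sham, male stroke, male sham, against 4.73%, 2.07%, 4.33% and 1.19% in other microglia. With a limit of 5% in place of 10%, 195 genes were higher and 180 lower within stroke and 638 and 487 within sham. Any 2 pools shared 4 to 11 barcodes, and 1 member barcode of female stroke occurred in the female sham pool and 1 in that of male stroke. The transcript of the ZsGreen reporter stood at 2032 and 1654 CPM in stroke members against 1556 and 1468 CPM in other stroke microglia, and at 1822 and 1213 CPM in sham members against 557 and 616 CPM in other sham microglia. It rose within sham (log2 1.33 ± 0.13) and did not pass within stroke (0.28 ± 0.12).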

How the data were processed

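Single-cell counts of UMIs per gene and barcode were deposited by the authors for 4 pools, 1 matrix each, with 32286 features, 1 of them ZsGreen. Cell Ranger 7.1.0 and mm10 are given in the submitters' processing notes, but cellranger 6.1.2 per the file headers. How intronic reads were treated was not given in the sources used here. Cells had been called before deposit. The barcodes numbered 5931 in female stroke, 4562 in female sham, 4944 in male stroke and 5000 in male sham. Cells with 500 genes, 1000 UMIs or more and up to 10% of mitochondrial UMIs were kept, 18045 in number. No doublet caller was run, so doublets remain. Microglia were then gated as the report gives (14009 cells, 11878 after the exclusions). The members and gene lists were chosen with earlier results of these data known.

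UMIs were summed per pool over members and over other microglia, since cells are not replicates. Both sums of a pool come from the same 4 mice and library, so the pool was the block. edgeR 4.0.16 (R 4.3.3) fitted the 8 sums with TMM scaling, its default filter, a term for members within stroke and one within sham (2 residual degrees of freedom), and tested each and their difference by the quasi-likelihood test, two-sided, with Benjamini-Hochberg adjustment at 0.05 over all genes. Genes of the rule were left out of the tests. Stroke and sham members were compared over the 4 member sums with sex as a term (1 residual degree of freedom, 24.1 prior degrees of freedom). The standard error is the absolute log2 change over the square root of F. Labels give no mice within a pool, so p-values measure only the spread between these pools. In the fit of the 8 sums the prior degrees of freedom were infinite, so that spread was the one shared by all genes. A gene whose pools of a treatment disagreed was given no wider error for it. A fitted fold against a sum of 0 UMIs is no bound.

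Named genes were those called within stroke and within sham, in the same direction in 4 of 4 pools and with at least 50 CPM as the mean in the kind of cell where they were higher: the 15 highest and 10 lowest by mean log2 change. For the difference the 5 highest and 5 lowest called, and between stroke and sham members the 8 highest and 8 lowest called, were named at 50 CPM or more. List members were chosen by their largest and smallest changes, and further ones after their values were seen. Some genes that the rules name are not reported here. Likeness was the mean Pearson r of log UMIs over pools, for genes in at least 5% of cells. Neural cells served as a measure of free RNA (under 5 per 10000 of gate genes, at least 20 of neural and choroid plexus markers). The intervals and shares cover counting error only. Simulated counts were also put through the tests, with a single dispersion shared by all genes and sums not built from cells. They cannot show how the tests behave where genes differ in spread or 1 cell gives most UMIs. Alternatives were DESeq2 1.42.0, library totals, no filter, no block, other thresholds and limits, thinning to 3000 UMIs (each cell to the same number) and leaving out each pool. The alternative without cells with other immune markers, Fn1 not counted, was chosen after seeing the data. Positions came from GENCODE M21, in which 32235 of 32286 features were found by identifier. The other steps ran in Python 3.11.15 with pandas 2.3.3, numpy 2.4.6, matplotlib 3.10.9 and scipy 1.17.1.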

Additional observations from a re-analysis of the deposited data

Results flagged for a closer look

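The change of members against other microglia differed between stroke and sham by the test of the difference itself, edgeR's quasi-likelihood test with Benjamini-Hochberg adjustment, for 23 genes above zero and 128 below. Differences are log2, stroke minus sham. Those above zero were led by Gm34455 at 2.32, Mxd4 at 1.66, Znrf2 at 1.66, Tet2 at 1.38 and Ccz1 at 1.14. Those below zero were led by Olfr1423 at -11.29, Gdf15 at -4.47, Nr4a1 at -3.65, Ch25h at -3.59 and Gadd45b at -3.46. Olfr1423 rests on 15 UMIs of 1 female sham cell. Of these 10 genes, Ch25h alone kept its call without each of the 4 pools in turn. With cells thinned to 3000 UMIs its difference was -1.62 (adjusted p 0.82).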

How the results depend on the processing

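Counts of called genes are given as higher and lower. Within stroke (333 and 301) they were 116 and 50 by DESeq2, 167 and 138 with cells thinned, 195 and 142 at a threshold of 40 per 10000, 195 and 180 at a mitochondrial limit of 5%, and 44 to 501 and 7 to 526 with 1 pool left out. Within sham (735 and 580) they were 326 and 285 thinned, 192 lower by DESeq2, and 425 to 625 and 294 to 467 with 1 pool left out. The difference (23 and 128) had 4 above by DESeq2, 3 and 30 thinned, 37 and 106 with library totals, 8 above without a filter on low counts, 75 below at 40 per 10000, 9 and 62 at 5%, and 0 to 52 and 24 to 275 with 1 pool left out. Stroke against sham members (74 and 51) had 21 and 10 by DESeq2, 96 and 109 with library totals, 125 and 80 where every pool had the UMI minimum of male sham, 119 higher without the filter, 36 and 21 at 5%, 46 to 298 and 27 to 207 with 1 pool left out, and 0 and 0 thinned (440 of 3905 genes at an unadjusted p under 0.05, edgeR; DESeq2 was not run on these). Library totals gave 638 higher and 799 lower within sham, and moved the median of all genes to -0.19 there. The pairing of members with other microglia of the same pool is by design. With no replicate block the counts were 188 and 116 within stroke, 609 and 448 within sham, 0 and 25 for the difference (934 genes at an unadjusted p under 0.05; 4 above by DESeq2 with the block) and 72 and 45 between members (without sex). The share at thresholds of 10 and 40 was 7.78% and 2.36% in female stroke, 6.66% and 1.998% in male stroke, 2.98% and 1.08% in male sham and 1.05% (at 10) in female sham; without the exclusions it was 5.73% in female stroke and 5.19% in male stroke. The difference of Mxd4 turned to -0.18 when cells were thinned. Of the named genes' values 1033 kept direction and side of the threshold, 125 no longer passed and 1 turned, and 15 had no adjusted p from DESeq2. Where a stroke or sham arm had 1 pool left, that pool was assumed to vary like the others. The cause of these changes was not tested. The female sham members, 20 cells, limit what sham values can show.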
